A study of Mus musculus with 2 samples.

Results

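Open chromatin inside coding exons was described in the hindbrain of mouse embryos, from 2 DNase-seq libraries. A coding exon peak was a deposited peak of either library whose midpoint lay in a coding sequence interval of a protein-coding GENCODE transcript and more than 1 kb from every protein-coding start. By this rule 2695 of 150176 peaks of replicate 1 and 4444 of 194873 peaks of replicate 2 were coding exon peaks. Peaks that overlapped by at least 1 bp were joined into sites, which gave 5203 coding exon sites among 231068 sites in all, or 2.25%. The rule used positions and no peak height. Both libraries came from B6NCrl hindbrain at embryonic day 11.5, with embryos of both sexes pooled, and the labels name them as 2 biological replicates with 1 shared donor entry. There was 1 group, with no treatment, mutation or second tissue, so no test between samples was possible and every comparison is between kinds of sequence within these libraries.

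DNase I cuts DNA most readily where nucleosomes have been displaced, so its hypersensitive sites mark promoters, enhancers and the places where factors such as CTCF sit on DNA. Coding exons are read mainly for the protein they encode, and some of them also serve as enhancers or factor binding sites in the same bases. Coding sequence is richer in G and C than introns, carries splice signals at its edges, and tends to lie closer to promoters in short genes than in long ones.

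The sequences of 6 of the 8 highest coding exon sites are shown first, because they show what kind of sequence was open. The Kank3 and Cacna1a sites, of ranks 4 and 5, are not printed, since 95 bases of the Kank3 window and all 150 of the Cacna1a window are also untranslated in another annotated mRNA. Each line is the central 150 bp of a site, read on the strand of its gene, from the RefSeq copy of GRCm38.p6, whose coordinates are those of mm10. Capitals mark coding bases and lower case marks intron, and a window with lower case alone lies wholly in coding sequence.
Atn1: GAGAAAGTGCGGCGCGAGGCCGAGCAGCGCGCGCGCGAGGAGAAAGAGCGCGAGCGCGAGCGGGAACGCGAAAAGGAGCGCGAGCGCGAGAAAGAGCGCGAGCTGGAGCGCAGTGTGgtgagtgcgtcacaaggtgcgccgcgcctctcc
Mamstr: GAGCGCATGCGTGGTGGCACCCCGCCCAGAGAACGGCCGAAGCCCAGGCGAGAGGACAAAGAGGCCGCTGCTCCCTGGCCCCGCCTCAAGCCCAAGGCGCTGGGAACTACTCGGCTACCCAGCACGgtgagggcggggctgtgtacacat
Sptbn4: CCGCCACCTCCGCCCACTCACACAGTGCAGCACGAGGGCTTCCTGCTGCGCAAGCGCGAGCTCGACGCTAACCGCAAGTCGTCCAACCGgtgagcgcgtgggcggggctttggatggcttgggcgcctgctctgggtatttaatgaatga
Angptl6: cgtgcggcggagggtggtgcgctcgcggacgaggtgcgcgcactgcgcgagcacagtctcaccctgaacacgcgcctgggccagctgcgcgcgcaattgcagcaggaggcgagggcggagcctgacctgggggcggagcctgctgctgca
Carns1: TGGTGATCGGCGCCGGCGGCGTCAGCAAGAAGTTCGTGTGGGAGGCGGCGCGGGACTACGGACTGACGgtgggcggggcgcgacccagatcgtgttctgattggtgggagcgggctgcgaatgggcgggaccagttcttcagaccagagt
Fbxl22: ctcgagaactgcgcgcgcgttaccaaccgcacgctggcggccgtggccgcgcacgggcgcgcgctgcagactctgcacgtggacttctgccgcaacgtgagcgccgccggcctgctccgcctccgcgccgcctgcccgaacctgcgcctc
The windows lie at chr6:124745606-124745755 (Atn1, minus strand), chr7:45643566-45643715 (Mamstr, plus strand), chr7:27361506-27361655 (Sptbn4, minus strand), chr9:20878226-20878375 (Angptl6, minus strand), chr19:4169446-4169595 (Carns1, minus strand) and chr9:66511766-66511915 (Fbxl22, minus strand). In the Atn1, Mamstr, Sptbn4 and Carns1 windows the coding bases run into a splice donor, which begins with gt. The GC content is lowest in the Sptbn4 window, at 64.0%, and highest in the Fbxl22 window, at 75.3%.

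Peak height is the authors' own value for each peak, a whole number whose scaling no source used here states. Across all peaks it had a median of 36 in replicate 1 and 50 in replicate 2, with highest values of 145 and 149. The 10 highest shared sites by mean rank were all near the top of that range. Atn1, which encodes the corepressor atrophin-1, had heights of 125 in replicate 1 and 146 in replicate 2, in coding exon 5 of 9 and 4297 bp from the nearest protein-coding start. Mamstr, a coactivator of MEF2 factors, had 126 and 140 in coding exon 6 of 9. Sptbn4, the beta-IV spectrin of axon initial segments, had 130 and 138 in coding exon 32 of 35. The replicate 1 height of Sptbn4 was the highest of any coding exon peak in that library.

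Kank3, an ankyrin repeat protein, had 120 in replicate 1 and 144 in replicate 2 in a coding exon of 1251 bp. Cacna1a, the pore-forming subunit of a neuronal calcium channel, had 118 and 143 in the last of its 47 coding exons, 23241 bp from the nearest protein-coding start, where the GC content was 80.0%. Carns1, the carnosine synthase, had 118 and 140, and Fbxl22, an F-box protein, had 114 and 137. All lay more than 1 kb from every start used in the rule, but other annotated starts were near some of them.

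Angptl6, a secreted angiopoietin-like protein, had 124 in replicate 1 and 137 in replicate 2 in its first coding exon. Rasip1, needed for the lumen of blood vessels, had 109 and 143 in its last coding exon. Inpp5b, an inositol polyphosphate phosphatase, had 112 and 136, and the proteasome subunit Psmc2 tied with it. Of the windows in Rasip1 and Psmc2, 51 and 146 bases were also untranslated in another annotated mRNA. Heights of 109 or more in replicate 1 and of 136 or more in replicate 2 thus held for all 10 sites.

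Several of these sites lay at starts that the rule does not count. The rule used protein-coding transcripts of the GENCODE basic set, and the full set adds short, noncoding and antisense transcripts. In the full set the Carns1 site was 35 bp from the start of the antisense gene Gm17552, the Rasip1 site 106 bp from that of the antisense gene A030001D20Rik, and the Inpp5b site 177 bp from that of the noncoding gene Gm12915 on the opposite strand. The Atn1 site was 46 bp and the Kank3 site 196 bp from the start of a noncoding transcript of the same gene, and the Mamstr site 713 bp from the start of a protein-coding transcript outside the basic set. RefSeq placed an mRNA start 269 bp from the Angptl6 site, 321 bp from the Rasip1 site and 16 bp from the Psmc2 site. Of the 10 highest sites, 7 had a start of the full set within 1 kb, and the Sptbn4 and Fbxl22 sites had neither a GENCODE nor a RefSeq start there.

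Over all 2139 shared sites such starts were less common, and 1571 (73.4%, exact 95% interval 71.5 to 75.3) had no start of the full set within 1 kb. A start of the full set lay within 1 kb of 26.6% of shared coding exon sites, against 11.9% of shared intron sites and 18.5% of eligible coding bases. All intervals on shares are exact Clopper-Pearson intervals at the 95% level and cover counting error only. A start of a gene that is not protein-coding lay within 1 kb of 145 shared coding exon sites (6.78%, 5.75 to 7.93), against 3.42% of shared intron sites and 2.39% of eligible coding bases. An antisense gene started there at 90 of them (4.21%, 3.40 to 5.15), against 1.43% of shared intron sites and 0.861% of eligible coding bases. Starts of other transcripts of protein-coding genes were near 18.2% of shared coding exon sites and 13.9% of eligible coding bases. With the shared sites divided into 4 equal groups by mean rank, genes that are not protein-coding started within 1 kb of 3.37% of the lowest group, then 5.61% and 7.85%, and 10.3% of the highest. Median heights differed little by this split, at 43 in replicate 1 and 83 in replicate 2 for sites with a start of the full set within 1 kb, and 42 and 79 for sites with none.

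A RefSeq mRNA start lay within 1 kb of 129 shared sites (6.03%, 5.06 to 7.12). The central 31 bases occurred at more than 1 place in the genome in 0.982% of shared coding exon sites and in 1.14% of shared intron sites.

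The members nearest above the 1 kb limit were in Erh (55 in replicate 1 and 95 in replicate 2, at 1001 bp), Etv2 (71 and 95), Ptx3 (68 and 105) and Hspa2 (39 and 93, at 1002 bp), with Mettl26 seen only in replicate 2 at 39. The coding sites nearest below the limit, which are not members, were in Lmx1b (105 in replicate 2 alone, at 1000 bp), 2610507B11Rik (66 and 82, at 999 bp), Emx2 (58 and 102), Mroh6 (36 and 82) and Rusc1 (26 in replicate 1 alone).

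Of the 5203 coding exon sites, 2139 had a peak in both libraries (41.1%, 39.8 to 42.5), 717 in replicate 1 alone (13.8%) and 2347 in replicate 2 alone (45.1%). The share with both was 41.1% in coding exons, 38.7% in introns and 42.3% over all sites. A site was classed as coding if any of its peaks was, and otherwise by its highest peak. A site of both libraries thus had more chances to count as coding, so these shares are not defined alike. In 479 of the 2139 shared sites (22.4%) at least 1 of the joined peaks had its midpoint outside the rule, in an intron, an untranslated exon or nearer a start. The whole of the highest coding exon peak was coding in 48.2% of shared sites (46.1 to 50.3), against 32.6% of windows of the same width centred on each eligible coding base. Open sites thus lay more often in long stretches of coding sequence than coding bases did on average.

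Coding exon peaks were higher than intron peaks in both libraries. In replicate 1 coding exon peaks had a median of 37, with quartiles of 27 and 52, and intron peaks a median of 32, with quartiles of 24 and 49. In replicate 2 the medians were 56 in coding exons (38 to 84) and 46 in introns (35 to 65). Both kinds stayed below promoter peaks, whose medians were 53 in replicate 1 and 94 in replicate 2.

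Shared coding exon sites had medians of 42 in replicate 1, with quartiles of 31 and 59, and of 80 in replicate 2, with quartiles of 59 and 98. Shared intron sites had medians of 40 and 63. Among the 1982 coding exon sites made of 1 peak of each library, replicate 2 was the higher in 98.0%, with a median ratio of replicate 2 over replicate 1 of 1.67, against 1.43 at 28620 such intron sites. Spearman's rho between the libraries over these sites was 0.77 in coding exons, 0.78 in introns and 0.93 at promoters, given as a description, since the sites share 2 libraries. The extra height of replicate 2 was thus larger in coding exons than in introns.

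**Figure D1:**
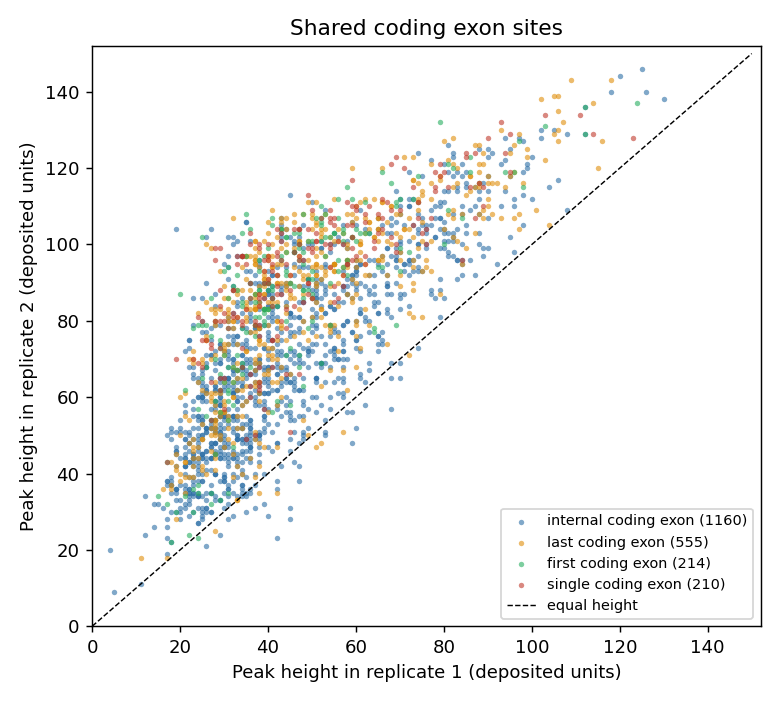
Peak height of each shared coding exon site in replicate 1 (x axis) and replicate 2 (y axis), both in the deposited units, coloured by the place of the exon in the coding sequence; the dashed line marks equal height. Most points lie above the line, with medians of 42 in replicate 1 and 80 in replicate 2.

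The overlap between libraries depended on height and differed by direction. Of replicate 1 coding exon peaks 72.0% (70.3 to 73.7) overlapped a replicate 2 peak, against 65.8% of intron peaks (65.4 to 66.2). Of replicate 2 coding exon peaks 44.3% (42.8 to 45.8) overlapped a replicate 1 peak, against 47.0% of intron peaks (46.6 to 47.4). Replicate 2 has the longer peak list. With replicate 2 cut to the length of replicate 1, the coding exon shares were 69.2% and 52.5%. The cause of the difference between directions was not tested.

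At equal height the replicate 2 gap widened. Among replicate 2 peaks of height 61 to 80, 58.3% of coding exon peaks (54.8 to 61.7) and 76.4% of intron peaks (75.6 to 77.2) overlapped a replicate 1 peak. At heights of 81 to 100 the shares were 73.9% in coding exons and 89.6% in introns. Weighting intron peaks to the heights of the coding exon peaks gave 56.7% for introns, against 44.3% in coding exons, and weighting to height and GC content together gave 50.9%. In replicate 1 the same weighting gave introns 70.1% by height and 74.9% by height and GC content, against 72.0% in coding exons. The replicate 2 share in coding exons lay below both weighted intron shares, while in replicate 1 the order of coding exons and introns changed with what was matched.

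**Figure D2:**
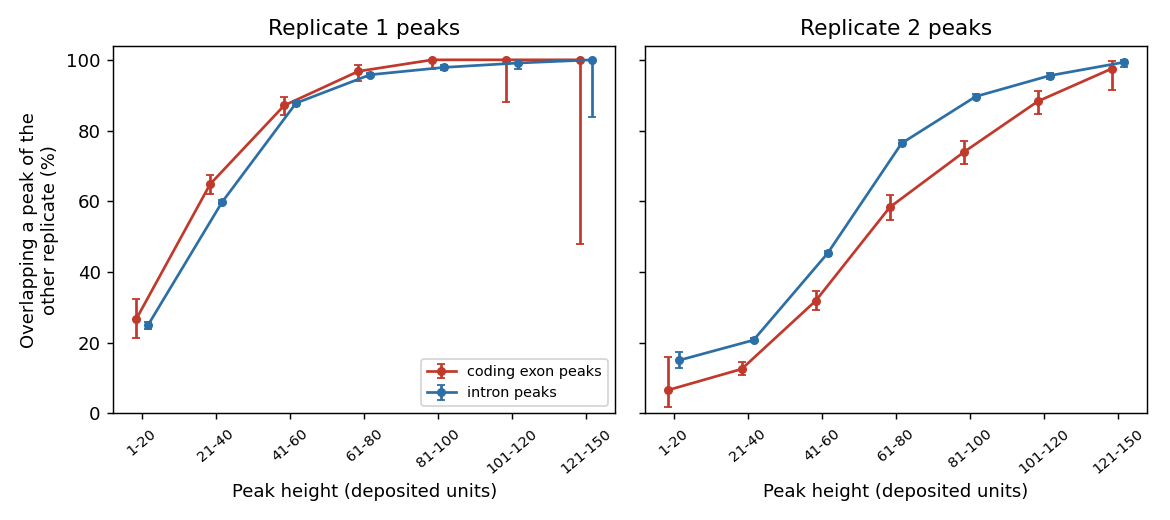
Share of peaks that overlap a peak of the other replicate (y axis, percent) by peak height in the deposited units (x axis), for coding exon and intron peaks of replicate 1 (left) and replicate 2 (right), with exact 95% intervals. In replicate 2 the coding exon points lie below the intron points, at 58.3% against 76.4% for heights of 61 to 80.

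The 5 highest peaks seen in each library alone stood beside a peak of the other library, but some of the next highest did not. In replicate 1 alone the 5 highest were in Chpf (74), a chondroitin polymerising factor, Prrt3 (73), Zfp503 (73), a zinc finger repressor, B4galnt1 (71), a ganglioside synthase, and 2700081O15Rik (65, tied with Ano8). In each of these 5 the centre of the peak lay in a replicate 2 hotspot, and the gap to the nearest replicate 2 peak was 10 bp in Chpf, 110 bp in Prrt3, 210 bp in Zfp503, 30 bp in B4galnt1 and 10 bp in 2700081O15Rik. A hotspot is a wider region that the authors called as enriched for cuts.

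In replicate 2 alone the 5 highest were in Cacna1a (126), Crlf2 (124), a cytokine receptor, Soga3 (117), 2700081O15Rik (116) and Tbr1 (116), a T-box factor of forebrain neurons. Their gaps to the nearest replicate 1 peak were 130 bp in Cacna1a, 150 bp in Crlf2, 50 bp in Soga3, 10 bp in 2700081O15Rik and 110 bp in Tbr1, and all 5 centres lay in a replicate 1 hotspot. The 2700081O15Rik peaks of the libraries, at chr19:7422136-7422285 in replicate 1 and chr19:7422296-7422445 in replicate 2, were neighbours in 1 exon of 549 bp that did not overlap. Among the next highest of each library, named after their values were seen, were the replicate 2 peaks in Nkx2-1 and Dlx2. Both had a height of 110, tied with C2cd4b and Hlx. They lay 3310 bp (Nkx2-1) and 1350 bp (Dlx2) from the nearest replicate 1 peak. The replicate 1 peak in Zc3hav1l, of height 62, lay 730 bp from the nearest replicate 2 peak. None of the Nkx2-1, Dlx2 and Zc3hav1l peaks had its centre in a hotspot of the other library.

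Over all sites of 1 library this was the exception in replicate 2 and common in replicate 1. Of the 717 coding exon sites of replicate 1 alone, 345 (48.1%, 44.4 to 51.8) had their centre in a replicate 2 hotspot, against 21.1% of intron sites of replicate 1 alone. Of the 2347 of replicate 2 alone, 95 (4.05%, 3.29 to 4.93) had their centre in a replicate 1 hotspot, against 2.84% of intron sites. A peak of the other library within a gap of 150 bp was present at 31.9% of coding exon sites of replicate 1 alone and at 12.02% of those of replicate 2 alone. The corresponding intron shares were 18.5% and 9.63%.

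Wide hotspots went with coding exons in replicate 2. Of shared coding exon sites 26.5% lay in a replicate 2 hotspot wider than 2 kb, against 8.90% of shared intron sites; in replicate 1 these shares were 3.04% and 1.39%. The median width of the hotspot under a coding exon peak was 460 bp in replicate 2 and 251 bp in replicate 1, against 271 bp and 223 bp under intron peaks.

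Coding sequence was more densely covered by shared sites than introns, and less densely at equal GC content. With shared sites classed by the base at their centre, 1879 lay in 30.5 Mb of eligible coding sequence, or 61.6 per Mb. The densities were 49.2 per Mb in untranslated exons, 33.8 in introns and 23.5 in intergenic sequence, so coding sequence held 1.82 times the intron density. The intron density weighted to the GC content of coding windows was 99.2 per Mb, which put coding sequence at 0.62 of it, and against intergenic sequence weighted in the same way the ratio was 0.65. Each library alone gave the same direction, with ratios to introns at equal GC content of 0.67 for replicate 1 peaks and 0.75 for replicate 2 peaks. Sites in no hotspot wider than 2 kb gave 0.56.

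Coding sequence was less dense than introns over most of the GC range and denser from 70 to 80%. At a GC content of 50 to 55% there were 41.5 shared sites per Mb of coding sequence and 76.9 per Mb of introns, and at 60 to 65% there were 130.3 and 254.8. At 70 to 75% there were 1278 per Mb of coding sequence and 897 per Mb of introns, and at 75 to 80% there were 1714 and 1610. At 80 to 85%, on 16 coding sites, the values were 1185 and 1208. Few coding windows are that rich in G and C, since the median GC content of eligible coding windows was 50.7% and 0.839% of them reached 70%.

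**Figure D3:**
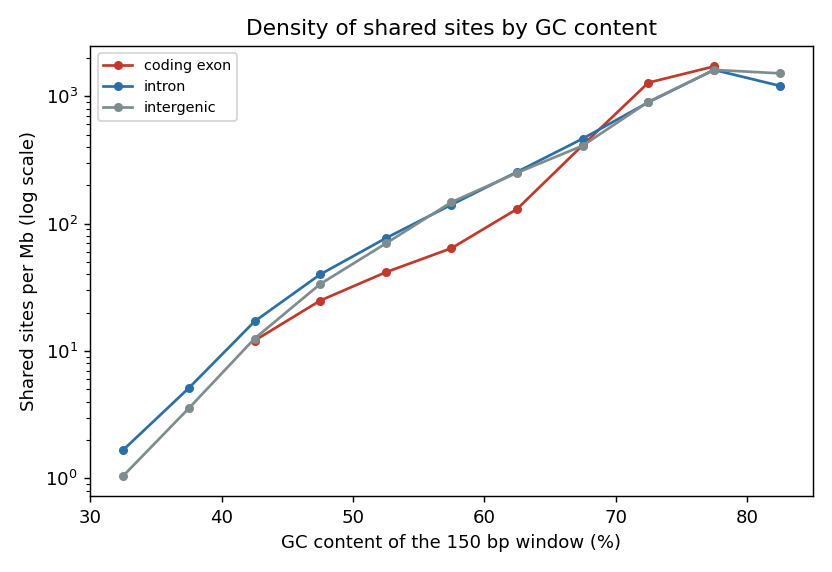
Shared sites per Mb on a log scale (y axis) by GC content of the 150 bp window (x axis, percent), for coding exons, introns and intergenic sequence; points resting on fewer than 20 sites are left out. At 60 to 65% GC coding exons have 130.3 per Mb and introns 254.8, and at 70 to 75% they have 1278 and 897.

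Open coding windows were richer in G and C than coding windows in general. The median GC content was 60.7% at shared coding exon sites, 56.0% at those of replicate 1 alone and 57.3% at those of replicate 2 alone, against 51.3% at shared intron sites. A GC content of at least 70% was found at 17.2% of shared coding exon sites (15.6 to 18.8) and at 1.296% of shared intron sites. The ratio of observed to expected CpG had a median of 0.60 at shared coding exon sites, 0.24 at shared intron sites and 0.33 in eligible coding windows.

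Shared sites were densest in the first coding exon and in genes with a single coding exon. First coding exons held 214 shared sites, or 168 per Mb, and single coding exons 210, or 155 per Mb. Last coding exons held 555, or 108 per Mb, and internal ones 1160, or 51.1 per Mb. Last exons thus held 25.9% of shared sites (24.1 to 27.9) in 16.9% of the eligible coding sequence, and internal exons 54.2% (52.1 to 56.4) in 74.5% of it. These densities, like all that follow, count a site by its highest coding exon peak, so they rest on 2139 shared sites and not on the 1879 classed by centre. Intron sites set beside them have no coding exon peak and have their highest peak in an intron. Coding densities are therefore higher beside introns here than when classed by centre.

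Exon place moved together with GC content and distance from the start. Median GC content was 66.0% at sites in single exons, 64.0% in first and in last exons and 57.3% in internal exons. If every coding window had the coding density of its GC content, 147.1 sites would lie in first exons, 149.2 in single exons, 477.4 in last exons and 1365 in internal exons, so the observed counts were 1.45, 1.41, 1.16 and 0.85 times these. The median distance to the nearest protein-coding start was 1.51 kb for sites in first exons, 1.58 kb in single exons, 5.89 kb in last exons and 12.8 kb in internal exons.

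Density was highest near the start in coding sequence and in introns, and changed little in coding sequence beyond 10 kb. At 1 to 2 kb it was 228.6 per Mb in coding sequence and 123.6 per Mb in introns, at 5 to 10 kb 66.8 and 32.3, at 10 to 50 kb 46.4 and 32.7, and beyond 50 kb 49.0 and 26.0. First exons had 352.3 per Mb at 1 to 2 kb and 76.7 at 5 to 10 kb, whereas last exons had 239.8 and 101.5. Last exons were denser than internal exons in each of the 5 distance ranges, with 71.9 against 46.5 per Mb beyond 50 kb, where they rest on 39 and 203 sites. Single exons beyond 50 kb held no shared site, in 0.0505 Mb of sequence.

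**Figure D4:**
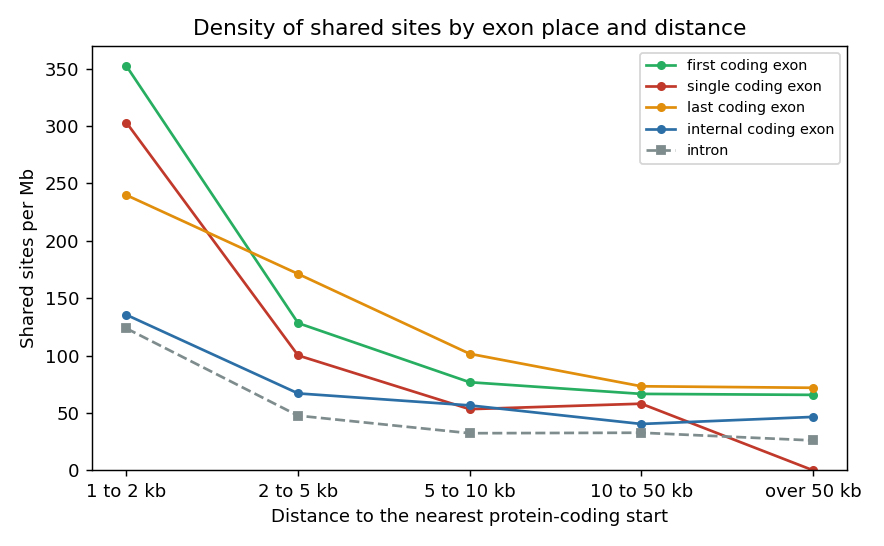
Shared sites per Mb (y axis) by distance to the nearest protein-coding start (x axis) for first, single, last and internal coding exons, with introns as a dashed line. First exons lead at 1 to 2 kb with 352.3 per Mb, and last exons lead beyond 2 kb, with 71.9 per Mb beyond 50 kb.

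Height followed exon place in replicate 2 more than in replicate 1. The replicate 2 median was 96.5 at shared sites in single exons, 89 in first and in last exons and 69 in internal exons, where replicate 1 had 46.5, 42.5, 45 and 40. Density was lowest in the shortest exons, with 43.5 sites per Mb in exons of up to 100 bp, 57.1 in those of 151 to 200 bp, 109.6 in those of 301 to 1000 bp and 95.6 in those over 1000 bp. Along the coding sequence of the host transcript, divided into 10 equal parts, the last part had the highest density, at 90.9 per Mb, and the third the lowest, at 57.3, with 76.9 in the first. At internal exons the splice edges were covered evenly: of 640 peaks that crossed 1 edge, 327 crossed the donor (51.1%, 47.1 to 55.0) and 313 the acceptor. A further 194 crossed both edges and 326 (28.1%) crossed neither.

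The X chromosome held few coding exon sites. It had 27 shared ones, or 23.8 per Mb of coding sequence, against 72.2 per Mb on the autosomes. Introns had 14.7 shared sites per Mb on the X chromosome and 34.5 on the autosomes. Embryos of both sexes were pooled, and these densities were not adjusted for the copy number of the X chromosome. Heights at the X-linked coding exon sites had medians of 39 in replicate 1 and 65 in replicate 2, against 42 and 80 on the autosomes.

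The CTCF core was as frequent at shared coding exon sites as at shared intron sites. CTCF is the zinc finger protein that marks domain borders and loop anchors. Its core was searched as a pattern of 12 bases, 7 of them fixed, on both strands of the central 150 bp, and 442 of 2139 shared coding exon sites held it (20.7%, 18.97 to 22.4), beside 20.7% of shared intron sites. Eligible coding windows of the same length held it in 3.12%, or in 6.44% once weighted to the GC content of the shared sites. Sites of 1 library held it less often, in 7.39% for replicate 1 alone and 6.82% for replicate 2 alone. A match of these letters is a description of the sequence and not a measurement of binding.

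The search covered the whole window, so a match can lie in the intron bases beside an exon. The number of matches within coding bases was not counted. At Sptbn4, the highest such site, the only match lay in intron bases beyond the splice donor. Examples among the other high sites show the core, in capitals, within coding exons. These were chosen after their values were seen. The letters are those of the strand of the gene, so the core reads in either direction.
Ccr10: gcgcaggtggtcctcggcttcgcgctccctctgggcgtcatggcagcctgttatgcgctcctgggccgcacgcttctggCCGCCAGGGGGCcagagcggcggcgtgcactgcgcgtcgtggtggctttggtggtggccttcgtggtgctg
Synpo2l: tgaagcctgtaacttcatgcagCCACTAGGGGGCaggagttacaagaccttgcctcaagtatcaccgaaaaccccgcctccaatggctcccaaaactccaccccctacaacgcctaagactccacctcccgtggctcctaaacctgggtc
Dnaaf3: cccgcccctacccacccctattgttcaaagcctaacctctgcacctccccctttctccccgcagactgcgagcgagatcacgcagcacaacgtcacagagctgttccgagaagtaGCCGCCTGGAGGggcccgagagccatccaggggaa
Kif7: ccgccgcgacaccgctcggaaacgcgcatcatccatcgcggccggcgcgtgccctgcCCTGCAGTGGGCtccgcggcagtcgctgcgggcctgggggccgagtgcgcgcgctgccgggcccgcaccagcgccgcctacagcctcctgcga
The windows lie at chr11:101173926-101174075 (Ccr10), chr14:20661046-20661195 (Synpo2l), chr7:4526446-4526595 (Dnaaf3) and chr7:79710216-79710365 (Kif7), all on the minus strand. Ccr10, a chemokine receptor, had heights of 102 in replicate 1 and 138 in replicate 2, and Synpo2l, an actin-associated protein of striated muscle, 115 and 120. Dnaaf3, which helps to assemble the dynein arms of cilia, had 112 and 129, and Kif7, the ciliary kinesin of the hedgehog pathway, 102 and 128. The Dnaaf3 site lay 25 bp from the start of the antisense gene Gm15873, the Kif7 site 8 bp from that of 9330171B17Rik, also antisense, and the Ccr10 site 606 bp from a RefSeq mRNA start.

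Sites with the CTCF core were higher in replicate 1 and little different in replicate 2. Their median heights were 55 in replicate 1 and 83.5 in replicate 2, against 40 and 79 at shared coding exon sites without it. The core was most frequent at sites in internal exons, at 24.1% (21.6 to 26.6). Sites in last exons followed at 19.8%, first exons at 13.1% and single exons at 11.9%. Over the 4 groups of mean rank it was present in 14.95%, 17.2%, 17.8% and 32.7% of shared sites, lowest group first.

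AT-rich consensus sequences were rarer in open coding exons than in open introns. The homeodomain core TAATTA was found at 0.514% of shared coding exon sites (0.257 to 0.918) and 2.92% of shared intron sites, and the octamer ATGCAAAT of POU factors at 0.234% and 1.32%. In coding windows weighted to the same GC content the shares were 0.343% and 0.162%. The Sox sequence AACAATG was found at 1.82% of shared coding exon sites and 3.13% of shared intron sites, and the AP-1 sequence TGANTCA at 1.96% and 4.35%. The weighted coding windows held them in 0.929% and 2.03%, so AP-1 was near its coding background and Sox above it. The general E-box CANNTG, which is not AT-rich, was present at 54.1% and 62.3%. Its proneural form CAGCTG, which CANNTG includes, had close shares, at 17.6% (15.99 to 19.3) and 16.5%. The interval at coding exon sites held the intron share. The weighted coding windows held these E-boxes in 56.5% and 16.4%.

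GC-rich consensus sequences had the opposite order. The Sp sequence GGGGCGGGG was found at 2.34% of shared coding exon sites (1.74 to 3.07), 1.64% of shared intron sites and 1.41% of coding windows weighted to the same GC content. The Ets sequence CCGGAAGT was found at 0.561% of shared coding exon sites, 0.191% of shared intron sites and 0.430% of the weighted coding windows. The Nrf1 palindrome of 10 bases was present at 5 coding exon sites (0.234%, 0.0759 to 0.545), at 0.0462% of intron sites and in 0.0787% of the weighted coding windows. The median heights at those 5 sites were 85 in replicate 1 and 123 in replicate 2. The nuclear receptor sequence AGGTCA and the Tead sequence CATTCC, which are not GC-rich, were found at 7.95% and 5.94% of shared coding exon sites, against 10.6% and 9.81% of shared intron sites. The weighted coding windows held them in 9.33% and 5.65%. The CRE palindrome TGACGTCA was found at 0.561% and 0.379%, and in 0.170% of the weighted coding windows. The RFX palindrome of 14 bases was at 2 coding exon sites (0.0935%, 0.0113 to 0.337). Shared intron sites held it in 0.234% and the weighted coding windows in 0.00288%. The NFI palindrome of 15 bases was at 1 coding exon site (0.0468%, 0.00118 to 0.260). Its shares were 0.0824% of shared intron sites and 0.00733% of the weighted coding windows.

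The shared sites lay in 1725 of 19601 genes with eligible coding sequence, which is 8.8%, and the sites of either library in 3411, which is 17.4%. Most host genes, 1413 of them, had 1 shared site, 237 had 2, 56 had 3, 13 had 4, 4 had 5 and 2 had 6.

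The genes with 6 shared sites were Tchh and Pcdh10, which are on chromosome 3. Tchh encodes trichohyalin, a structural protein of the hair follicle, and its shared sites had heights of 35 to 87 in replicate 1 and 72 to 115 in replicate 2, all in its last coding exon of 4659 bp. A further 7 sites in that exon were seen in 1 library, so 13 sites in all lay between 1321 and 5601 bp from the start. The highest shared Tchh site, at chr3:93444716-93444885, had 87 in replicate 1 and 115 in replicate 2. Pcdh10, a protocadherin outside the clusters, had 6 in its first coding exon with 34 to 56 in replicate 1 and 83 to 97 in replicate 2, and 1 more in replicate 1 alone.

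Fzd8, a Wnt receptor whose coding sequence is 1 exon, had 5 shared sites with heights of 40 to 90 in replicate 1 and 85 to 128 in replicate 2. Sptbn4 had 5 over 35 coding exons, with 30 to 130 and 55 to 138, and 8 more in 1 library. The T-box repressor Tbx2 had 5 in 4 internal exons and the last exon, low in replicate 1 (27 to 39) and high in replicate 2 (85 to 106). Dst, the cytolinker dystonin, had 5 spread from 22501 to 139461 bp from the nearest start, with 18 to 52 in replicate 1 and 44 to 86 in replicate 2. Per length Dst was sparse, as its eligible coding sequence is 27.2 kb, against 1.74 kb in Tbx2 and 1.81 kb in Fzd8.

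With 4 shared sites each came the coactivator gene Mn1 (43 to 54 in replicate 1 and 90 to 104 in replicate 2), the muscle kinase Speg (38 to 60 and 84 to 100), the pioneer factor Foxa1 (37 to 52 and 87 to 104) and Cacna1a (31 to 118 and 69 to 143). All 4 of the Foxa1 sites lay in its last coding exon. In all 4 genes the sites were higher in replicate 2 than in replicate 1 by lowest and by highest value.

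The shares of host genes in each list are set beside the 8.8% of all genes. Of 17 Notch pathway genes 10 did (58.8%, 32.9 to 81.6), of 19 Sox genes 9 (47.4%, 24.4 to 71.1), of 41 forkhead genes 14 (34.1%, 20.1 to 50.6) and of 15 Pou genes 5 (33.3%, 11.8 to 61.6). The lists were chosen with earlier results of these data known, the genes of a list share sequence, and no list was tested. Their density was also high, with 712.3 shared sites per Mb of eligible coding sequence in Sox genes and 499.7 in forkhead genes, against 70.2 over all genes. Density also moved with GC content, exon place and distance from the start, and no list was matched to all genes for these.

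In the Notch list the highest sites were in the last coding exon of the receptor gene Notch4, at 106 in replicate 1 and 135 in replicate 2, and of the target repressor gene Hes1, at 80 and 127. Notch4, a receptor best known from endothelium, had its site at chr17:34587496-34587665. In the Sox list they were in Sox11, at 68 and 109, and Sox8, at 73 and 96, both regulators of neural and glial development. In the Pou list Pou3f3 had 55 and 107 and Pou4f2 43 and 104, and in the forkhead list Foxd3, a neural crest factor, had 59 and 102 and Foxa1 52 and 104. The replicate 2 heights of these forkhead and Pou sites were above 100 while those of replicate 1 stayed at or below 59.

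Hox genes, which pattern the hindbrain along its length, had a share near that of all genes by shared sites, with 4 of 39 (10.3%, 2.87 to 24.2). Per length they were denser, with 343.0 shared sites per Mb against 70.2 over all genes. That density rests on 5 sites in 0.0146 Mb of eligible coding sequence. Hoxb2 had its highest site at 43 in replicate 1 and 106 in replicate 2, and Hoxd10 at 50 and 86, both in the last coding exon. With a site in either library the count was 19 of 39, against 17.4% of all genes.

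Of 46 axon guidance genes 11 held a shared site (23.9%, 12.6 to 38.8), led by Sema4a (66 in replicate 1 and 111 in replicate 2) and Sema3f (64 and 96), which encode semaphorins. Of 39 kinesin genes 8 did (20.5%, 9.30 to 36.5), led by Kif7 and by Kif19a (90 and 125). Of 93 potassium channel genes 16 did (17.2%, 10.2 to 26.4), led by Kcnj9 (57 and 104) and Kcnj10 (58 and 95). The 22 ephrin and Eph receptor genes held none (upper limit of the interval 15.4%), and 3 of them had a site in 1 library.

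Among structural genes, 5 of 11 laminin genes held a shared site (45.5%, 16.7 to 76.6), at low heights led by Lama1 (38 in replicate 1 and 50 in replicate 2) and Lamb1 (27 and 71). Laminin genes are long, and their density of 100.3 per Mb was closer to the 70.2 of all genes than their share was. Of 59 keratin genes 8 did (13.6%, 6.04 to 24.98), led by Krt88 (72 and 104) and Krt86 (64 and 102). Of 45 collagen genes 4 did (8.89%), with Col6a3 at 65 and 74 and Col28a1 at 53 and 51. Of 57 clustered protocadherin genes 4 did (7.02%), with Pcdhgc5 at 61 and 109 and Pcdhga12 at 57 and 94.

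Chromatin regulators had 8 of 78 (10.3%, 4.53 to 19.2), led by the remodeller subunits Smarcb1 (70 in replicate 1 and 98 in replicate 2) and Smarcd3 (50 and 111). The density in this list was 27.4 shared sites per Mb, below the 70.2 of all genes. Zinc finger genes had 33 of 467 (7.07%, 4.91 to 9.78), led by Zfp771 (105 and 139) and Zfp697 (96 and 119). Of 279 olfactory receptor genes 1 held a shared site, in Olfr95 (30 and 57), and none of 169 vomeronasal receptor genes did (upper limit 2.16%). None of 77 cytoplasmic ribosomal protein genes (upper limit 4.68%) and none of 14 histone genes (upper limit 23.2%) did. The ribosomal list offered 0.0275 Mb of eligible coding sequence.

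**Figure D5:**
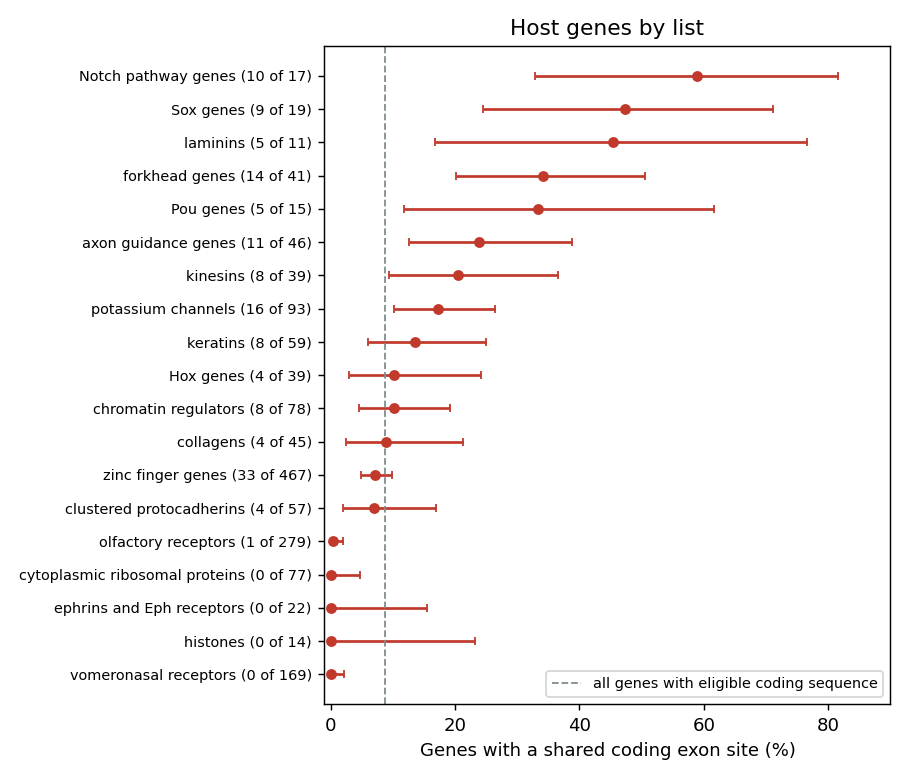
Share of genes with a shared coding exon site (x axis, percent) in each of the 19 gene lists (y axis, counts in brackets), with exact 95% intervals; the dashed line is the 8.8% of all genes. Notch pathway genes are highest at 58.8%, and 4 lists are at 0.

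Promoter sites were counted at marker genes of several tissues. Both libraries had a promoter peak in 1 site at 5 of 8 hindbrain markers (not at Hoxa2, Hoxb1 and Hoxb2), 4 of 4 neural progenitor and 4 of 4 neuron markers, 3 of 4 forebrain markers (not at Six3), 3 of 3 mesenchyme markers, 1 of 3 endothelium markers (Kdr) and 0 of 3 blood markers. The share of all genes with such a promoter site is not given here. The hindbrain markers had no larger share than the forebrain or mesenchyme markers, so these counts do not check the tissue label. Hoxb2, without a shared promoter site, had 2 shared coding exon sites. How far markers of other cell types bear on single coding exon sites was not tested.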

How the data were processed

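DNase-seq peaks and hotspots were deposited by the authors for each of the 2 hindbrain libraries, on mm10 per the file headers and labels and called per library. No source used here names the aligner, the peak caller or the read depth. Peak height is a score deposited by the authors, a whole number per 150 bp peak. Hotspots carry a −log10 value of a false discovery rate deposited by the authors, with 100 for the strongest. Peaks on the 19 autosomes, X and Y were kept, and repeated positions were dropped (32 in replicate 1 and 60 in replicate 2).

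Midpoints were classed with the GENCODE M21 basic annotation (45065 protein-coding transcripts, 41408 starts). The host transcript was the one with the longest coding sequence at the base. A shared site has a peak of each library. Densities divide sites by eligible bases, and comparisons at equal GC content weight bins of 5 percentage points. Motifs were searched on both strands with Python 3.11.15 and numpy 2.4.6, and intervals came from scipy 1.17.1. The classing and overlap steps were tested on simulated data, where 100.0% of 2000 positions and of 1000 peak pairs came out right.

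The coding exon sites and the gene lists were chosen with earlier results of these data known. Named were the 10 highest shared sites, the 10 genes with most shared sites, the 5 highest sites of each library alone, the 2 genes with the highest site in each list, and the 5 sites nearest each side of the 1 kb limit. Alternatives were the distance from starts, the height and overlap required, hotspot width, the annotation, and leaving out each replicate; RefSeq mRNA starts, equal list lengths, starts of the full GENCODE set and the position of 1-library peaks against the other library were added after seeing the data.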

Additional observations from a re-analysis of the deposited data

How the results depend on the processing

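With peaks above their library's median height alone there were 2730 coding exon sites, 1297 of them shared in 1097 genes, with 87.3% of replicate 1 and 48.7% of replicate 2 coding exon peaks overlapping, 29.4% of shared sites in the last coding exon and a density ratio to introns of 2.20. An overlap of at least 75 bp gave overlap shares of 59.3% for replicate 1 and 36.8% for replicate 2. Without peaks in hotspots wider than 2 kb these were 53.8% and 41.4%, and the density ratio was 1.47. With replicate 2 cut to the length of replicate 1, an alternative chosen after seeing the data, they were 69.2% and 52.5%. Sites more than 2500 bp from starts had 28.7% in the last coding exon. Leaving out each replicate gave 2614 to 4301 coding exon sites, 1971 to 2961 genes, 25.8% to 25.9% in the last coding exon and a density ratio of 1.68 to 1.96. The overlap of each library with the other and the count of shared sites have no value with 1 library. Of all 77 values, 60 were classed as unchanged, some of them given above. They covered the distance from starts, kind of starts, annotation, repeated sequence and the rest. The tolerance for calling a count unchanged was wide. Shared sites went from 2139 to 1573 beyond 2500 bp from starts and to 1572 without peaks in wide hotspots. Genes went from 1725 to 1314 and 1349. Of these results only the density ratio could reverse, and it did not. Weighting by GC content, which put coding sequence at 0.62 of the intron density, was not among these alternatives. No paired analysis was possible because there is 1 group. Depth is unknown, so a site of 1 library may be below detection in the other.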
